A study of Mus musculus with 11 samples.

Results

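The promoter windows of microRNA genes were examined for ST18 chromatin signal. A window was taken as a microRNA window when its gene symbol was Mir or Mirlet followed by a number, and 583 of the 21881 windows of the promoter table met this rule. Each window spans 1000 bp and stands for 1 gene symbol. The sources used here do not give its place relative to the gene start. The rule also took in Mir17hg and Mir1-2as, which are symbols of a host transcript and an antisense transcript.

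The mouse series pairs an ST18 knockdown RNA experiment in embryonic cortex, not analysed here, with chromatin immunoprecipitation (ChIP) of ST18. The ST18 ChIP was made in vitro with an antibody against the HA tag on cells that the labels call TN, a name they do not spell out, and give as brain cells. Its reads are set against genomic input DNA of the same TN cells. The table has 1 ST18 column and 1 input column for 2 ChIP samples and 1 input sample, and whether the ST18 column pools both ChIP samples is not stated. No expression values of TN cells were used, so the identity of the cells was not checked against marker genes, and no genotype, strain or culture time is given for them. A molecule label of the input sample reads HAChIP although its title and description name it as input, and every ratio here rests on the title. An HA antibody detects a tagged protein, so the signal is that of tagged ST18, and the level of the tagged protein is not given. With 1 column each there is no replicate, so no value below carries a replicate error and no test compares conditions.

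MicroRNAs are short RNAs cut from a hairpin in a longer transcript. They guide Argonaute proteins to messenger RNAs, chiefly by pairing of the seed near their 5′ end, and lower the output of those messages. Many are embedded in introns of protein-coding genes or in clusters read from a single distant promoter, so the window at a hairpin is often not the promoter that drives it. ST18 belongs to the Myt1 family of zinc finger transcription factors, which recognise an AAGTT core in DNA and are expressed in developing neurons. Mir9, Mir124 and Mir128 are abundant in the nervous system: miR-9 acts in neural progenitors and early neurons, miR-124 represses non-neuronal messages such as that of Ptbp1, and miR-128 is prominent in mature neurons.

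The mature RNAs of the windows on which the results turn are shown to make plain which windows give the same product or the same seed. Sequences are from RefSeq (GRCm38.p6), written 5′ to 3′, with the seed (bases 2 to 8) in capitals. The submitters' processing notes name another build, mm9, for the reads, and no coordinates were carried between them. The first line is the product of the window with the highest log2 enrichment, Mir207, at chr4:40722968-40722990 on the plus strand.
miR-207: gCUUCUCCuggcucuccucccuc
miR-9-5p, made by Mir9-1, Mir9-2 and Mir9-3: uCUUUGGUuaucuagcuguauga
miR-128-3p, made by Mir128-1 and Mir128-2: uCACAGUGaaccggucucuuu
let-7d-5p, from the window with the lowest log2 enrichment: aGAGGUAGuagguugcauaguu
let-7a-5p, made by Mirlet7a-1: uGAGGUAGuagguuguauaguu
let-7e-5p: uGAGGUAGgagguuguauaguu
miR-125a-5p: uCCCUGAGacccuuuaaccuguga
miR-125b-5p, made by Mir125b-1 and Mir125b-2: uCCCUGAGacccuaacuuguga
miR-30a-5p: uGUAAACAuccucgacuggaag
miR-30c-5p, made by Mir30c-2: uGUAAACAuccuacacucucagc
miR-369-3p, from the 3′ end of the Dlk1-Dio3 cluster: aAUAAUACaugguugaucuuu
miR-410-3p, from the same stretch: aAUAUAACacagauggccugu

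MicroRNA windows as a whole carried ST18 reads in close to the same proportion to input as the other promoter windows. They held 13349 ST18 reads against 4823 input reads. Divided by the ratio of all promoter windows (438960 ST18 reads against 160443 input reads), this is a fold of 1.01, with an exact (Clopper-Pearson) 95% interval of 0.979 to 1.05. Fold below always means this ratio of ratios. Its intervals cover counting error only, because there is no replicate. A floor of 3 counts replaced the input of a window where input is 0. PCR copies of 1 molecule cannot be told apart without molecular identifiers, so the intervals may be too narrow. The same fold was 0.999 (0.993 to 1.01) over 20042 protein-coding windows, with 402693 ST18 reads against 147299 input reads, and 0.975 (0.900 to 1.06) over 108 snoRNA windows, so the microRNA interval overlaps both. Mir715 alone, whose symbol matched no RefSeq gene, supplied 2468 ST18 reads against 814 input reads. Without it the other 582 microRNA windows gave 10881 ST18 reads against 4009 input reads and a fold of 0.992 (0.957 to 1.03).

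Depth set the limit of what a single window could show. The median microRNA window had 26 reads over both columns, against 28 in protein-coding windows, and 13 microRNA windows had none. The deposited log2 enrichment adds 16 to both counts after scaling ST18, so it pulls such windows towards 0. On that scale the microRNA windows had a median of 0.03, a standard deviation across windows of 0.226 and a range of -0.61 to 1.18, against a median of 0.04 and a standard deviation of 0.226 in protein-coding windows. The median over all windows was 0.04, and 282 of the 583 microRNA windows lay above it.

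**Figure D1:**
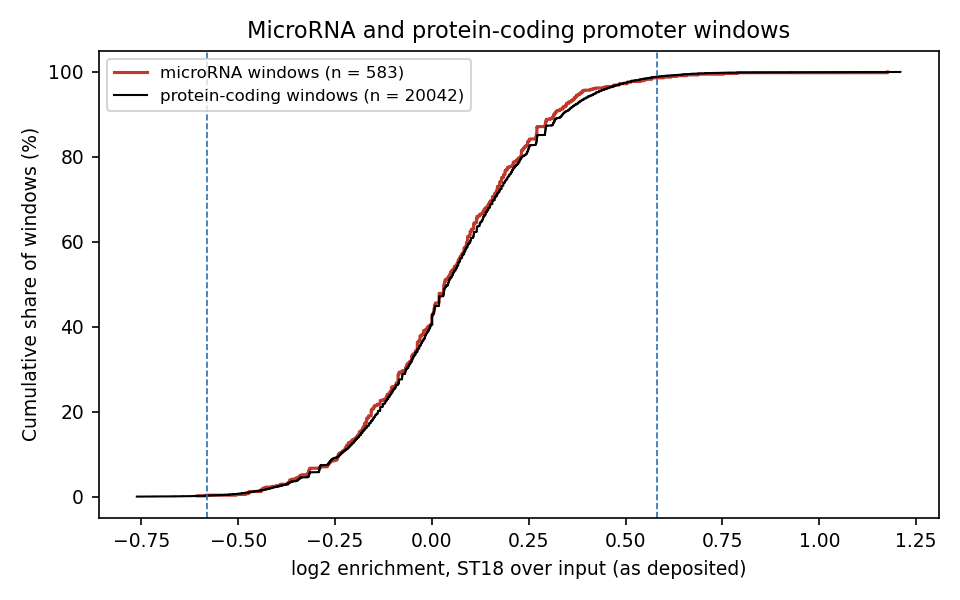
Cumulative share of windows (%) by deposited log2 enrichment of ST18 over input, for 583 microRNA windows (red) and 20042 protein-coding windows (black). The curves run close together through medians of 0.03 and 0.04, and the dashed lines at -0.58 and 0.58 mark the thresholds used for counting.

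A log2 enrichment of at least 0.58, which is 1.5-fold on the deposited scale, was reached by 8 microRNA windows (1.37%), against 1.15% of all windows and 231 protein-coding windows (1.15%). A value of -0.58 or lower was found in 2 microRNA windows (0.343%), against 0.219% of all windows and 46 protein-coding windows. At 1 or more there was 1 microRNA window, Mir207, against 0.0548% of all windows. These shares are close to the background, apart from the last, which rests on a single window. The reads of single windows were set against the all-promoter ratio by an exact two-sided binomial test, adjusted by Benjamini-Hochberg over the 21358 windows with reads. It called 1 microRNA window higher in ST18 (0.0375% of all windows were called higher) and 0 lower (0.00936% were called lower). At an unadjusted exact p under 0.05 there were 15 higher microRNA windows, against a background of 2.43%, and 20 lower ones, against a background of 3.32%. It sets reads of 1 column against reads of the other and is no test of a condition.

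**Figure D2:**
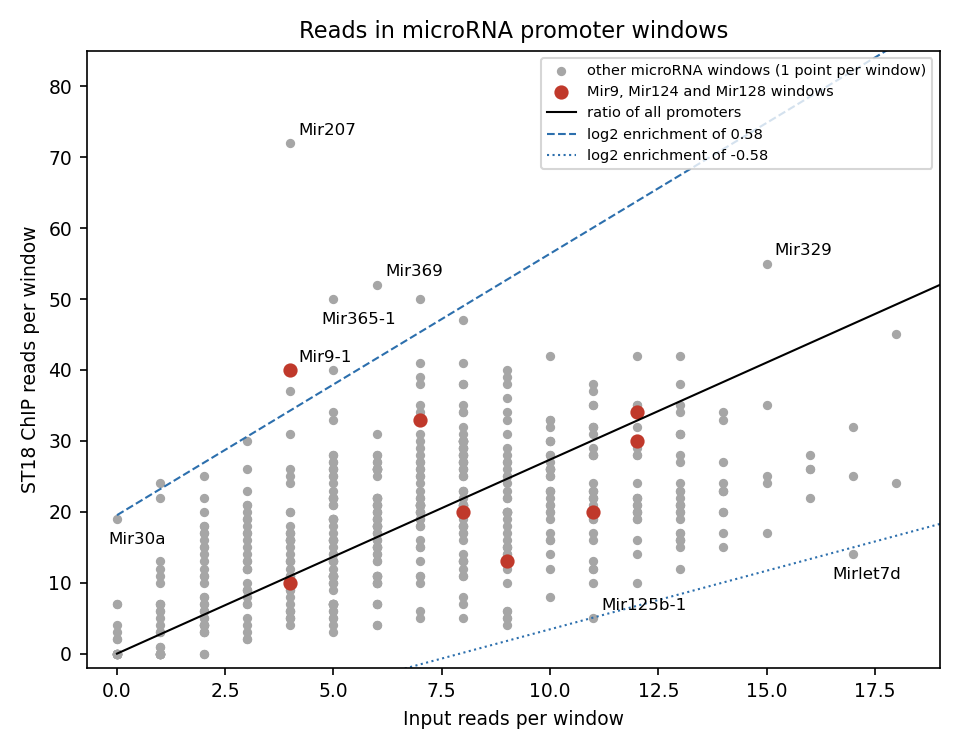
ST18 ChIP reads against input reads in each microRNA window, with the Mir9, Mir124 and Mir128 windows in red and Mir715 (2468 ST18 reads, 814 input reads) beyond the axes. The solid line is the ratio of all promoters; windows above the dashed line reach a log2 enrichment of 0.58 and those below the dotted line lie under -0.58, with Mir207 standing furthest above and Mirlet7d and Mir125b-1 lowest.

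The Mir9, Mir124 and Mir128 windows were, as a group, near the ratio of all promoters. Their 8 windows held 200 ST18 reads against 67 input reads, a fold of 1.09 (0.823 to 1.46), and the other 575 microRNA windows held 13149 ST18 reads against 4756 input reads, a fold of 1.01 (0.977 to 1.05). The interval of the 8 windows covers the value of the others. Their median log2 enrichment was 0.01, against 0.03 in the other microRNA windows, and 3 of the 8 lay above the median of all windows. Mir9-1 was the 1 window of the 8 past 0.58. Without it the remaining 7 held 160 ST18 reads against 63 input reads, a fold of 0.928 (0.689 to 1.26).

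The 3 Mir9 genes encode the same mature RNA, shown above, from separate chromosomes. Mir9-1 stood at a log2 enrichment of 0.69, from 40 ST18 reads against 4 input reads, and its fold was 3.66 (1.32 to 14.1), with an exact p of 0.00716 and an adjusted p of 0.603. Mir9-2 had 20 ST18 reads against 11 input reads (log2 -0.16), and Mir9-3 had 20 against 8 (log2 0.01). Only the interval of Mir9-1 leaves out 1, and it overlaps those of Mir9-2 (0.304 to 1.54) and Mir9-3 (0.386 to 2.40). The window of Mir3093 overlaps that of Mir9-1 and can share its reads. Mir3093 had 29 ST18 reads against 8 input reads (log2 0.21). Its fold of 1.32 had an interval of 0.591 to 3.35, which covers 1 and overlaps that of Mir9-1. Summed, the Mir9 windows had 80 ST18 reads against 23 input reads, a fold of 1.27 (0.791 to 2.12).

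The intervals of the 3 Mir124 windows overlap and cover 1. Mir124a-1 had 30 ST18 reads against 12 input reads, Mir124a-2 had 34 against 12 and Mir124a-3 had 33 against 7, with log2 enrichments of 0.01, 0.09 and 0.35. Mir124a-3 had the highest fold, 1.72, but its interval of 0.750 to 4.62 covers 1. Their sum of 97 ST18 reads against 31 input reads gave a fold of 1.14 (0.756 to 1.77). Mir128-1 had 10 ST18 reads against 4 input reads, and Mir128-2 had 13 against 9, with log2 enrichments of 0.00 and -0.23. Together these gave a fold of 0.647 with an interval of 0.314 to 1.39, so at this depth neither a higher nor a lower ratio was detectable for Mir128.

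**Figure D3:**
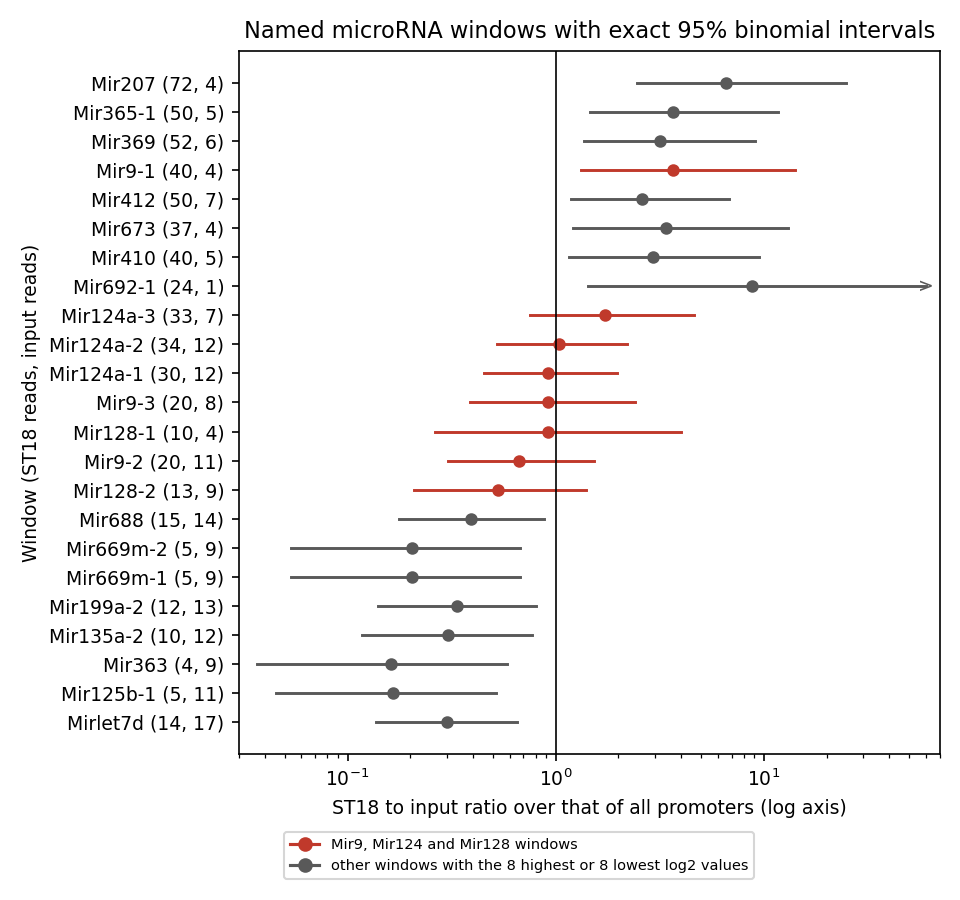
Fold of the ST18 to input ratio over that of all promoters (log axis) with exact 95% binomial intervals, for the 8 Mir9, Mir124 and Mir128 windows (red) and the microRNA windows with the highest and lowest log2 enrichment (grey); ST18 and input reads follow each name. Of the red windows only Mir9-1, at 3.66, has an interval that leaves out 1; the arrow marks an interval that runs past the axis.

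The highest windows were chosen by the values given here, which exaggerates their folds. Mir207 led at a log2 enrichment of 1.18, from 72 ST18 reads against 4 input reads, and its fold was 6.58 (2.46 to 24.8), with an exact p of 2.79e-06. Its adjusted p of 0.0298 made it the 1 microRNA window past the threshold. Next came Mir365-1 with 50 ST18 reads against 5 input reads (log2 0.79), whose fold of 3.66 had an interval of 1.47 to 11.7 and an adjusted exact p of 0.457. Mir369, Mir412 and Mir410 had 52, 50 and 40 ST18 reads against 6, 7 and 5 input reads. Mir673 had 37 ST18 reads against 4 input reads, and Mir692-1 had 24 against 1. Their log2 enrichments, with that of Mir9-1, ran from 0.60 to 0.75. Just under the threshold stood Mir7-2 with 30 ST18 reads against 3 input reads (log2 0.57), one of the genes for the neuronal and endocrine miR-7a. Mir30a had 19 ST18 reads against 0 input reads, at least 2.31-fold higher in ST18 if input is set to the floor of 3 counts in that window, with an exact lower 95% limit of 1.71.

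Mir207 shares its locus with a protein-coding start. In the RefSeq annotation its gene start lies less than 1000 bases from a start of Dnaja1, a member of the DnaJ (Hsp40) family of heat-shock co-chaperones. The Dnaja1 window had 62 ST18 reads against 6 input reads and a log2 enrichment of 0.90, so both windows were high, and reads in one cannot be told apart from reads in the other where the windows overlap. RefSeq gives 3 starts of Dnaja1, and the 250 bases before the one nearest to the start of Mir207, 5 bases away, are printed as the annotated promoter stretch closest to the 1 called microRNA window (GRCm38.p6, chr4:40722672-40722921, plus strand). It has 0 matches to the AAGTT core of the Myt1 family, searched on both strands, and 0 to GAANNTTC, the paired unit of heat-shock elements, which reads the same on both strands. Capitals would mark a match, so there are none. The stretch before the most upstream start has 0 matches to AAGTT and 1 to GAANNTTC.
Dnaja1 upstream: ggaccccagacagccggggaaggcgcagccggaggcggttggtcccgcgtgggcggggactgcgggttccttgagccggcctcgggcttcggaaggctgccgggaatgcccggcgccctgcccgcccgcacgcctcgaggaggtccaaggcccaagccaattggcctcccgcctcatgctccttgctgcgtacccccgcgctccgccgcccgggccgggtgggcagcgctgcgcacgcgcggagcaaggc
GAANNTTC occurs in 6.69% and AAGTT in 35.3% of 32851 RefSeq promoter stretches of the same length. The motifs can share bases, and a match is a description of letters, not a site.

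Some other microRNA windows lay beside a protein-coding start, and their values were set beside that of the coding window. Of the 583 microRNA windows, 566 matched a RefSeq gene, and 29 lay less than 1000 bases from a protein-coding start. These 29 windows held 784 ST18 reads against 260 input reads, a fold of 1.10 (0.957 to 1.27), with a median log2 enrichment of 0.09 and 20 above the median of all windows. The 525 windows further away held 9637 ST18 reads against 3579 input reads, a fold of 0.984 (0.947 to 1.02) and a median of 0.03, and the intervals of the sets overlap. The distance was not measured for the remaining 29. Across the 29 windows the log2 enrichment had a Pearson r of 0.519 with that of the neighbouring coding window, with which they can share reads, against -0.0751 across the 525 others. Without Mir207 and Dnaja1 it was 0.341 over 28 windows, and Ncrna00085 enters it 3 times. Among the 525 others, the Dlk1 and Sfmbt2 windows each enter many times, as neighbours of clustered microRNA windows. Mir125a, Mirlet7e and Mir99b, which form a cluster beside Ncrna00085, had 31, 28 and 27 ST18 reads against 4, 6 and 7 input reads. The Ncrna00085 window itself had 36 ST18 reads against 5 input reads. Others lay far from the value of their neighbour. Mir26a-2 had 23 ST18 reads against 8 input reads beside Ctdsp2 with 89 against 9, and Mir688 had 15 against 14 beside Atp5g2 with 48 against 9. Of the 27 neighbouring coding genes with a RefSeq promoter stretch, 12 (44.4%) held the AAGTT core, against 37.7% of coding genes.

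Neighbouring microRNA windows overlap, so they are not separate measurements. With starts less than 1000 bases apart joined, the 566 matched windows fell into 439 regions, of which 77 held more than 1 window and the largest held 7. The median difference in log2 enrichment between neighbouring windows was 0.105 over 127 pairs, against 0.212 over all pairs of microRNA windows. Sums over a cluster below therefore count some reads more than once, and their intervals are too narrow.

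The Dlk1-Dio3 cluster, an imprinted domain whose maternal copy expresses many microRNAs in brain, held 4 of the 8 windows past 0.58. That is 8.33% of its 48 listed windows, against 1.15% of all windows, and 3 of the 4 lie in 1 region. The list leaves out Mir3070a, Mir3070b, Mir432, Mir3071, Mir341, Mir1188 and Mir882, which lie between listed windows. Their log2 enrichments ran from -0.37 at Mir882 to 0.25 at Mir3070a. The 48 listed windows summed to 1320 ST18 reads against 446 input reads, a fold of 1.08 (0.971 to 1.21), with a median log2 enrichment of 0.03. Those past 0.58 were Mir673, Mir412, Mir369 and Mir410, and the last 3 of these lie side by side with Mir409 at the 3′ end of the cluster. Mir409, Mir412, Mir369 and Mir410 had 47, 50, 52 and 40 ST18 reads against 8, 7, 6 and 5 input reads. They were grouped because they are high, so their joint fold of 2.66, from 189 ST18 reads against 26 input reads, is a description. Mir541, the next window in the same region, had 28 ST18 reads against 11 input reads and a log2 enrichment of 0.02, and with it the whole region held 217 ST18 reads against 37 input reads, a fold of 2.14. Without Mir409, Mir412, Mir369 and Mir410 the listed windows gave 1131 ST18 reads against 420 input reads, a fold of 0.984 (0.879 to 1.10). Mir673, near the other end, had 37 ST18 reads against 4 input reads, and the lowest window, Mir380, had 17 against 14 (log2 -0.39). Mir329, in the middle, had the third highest number of reads of all microRNA windows, with 55 ST18 reads against 15 input reads (log2 0.31).

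**Figure D4:**
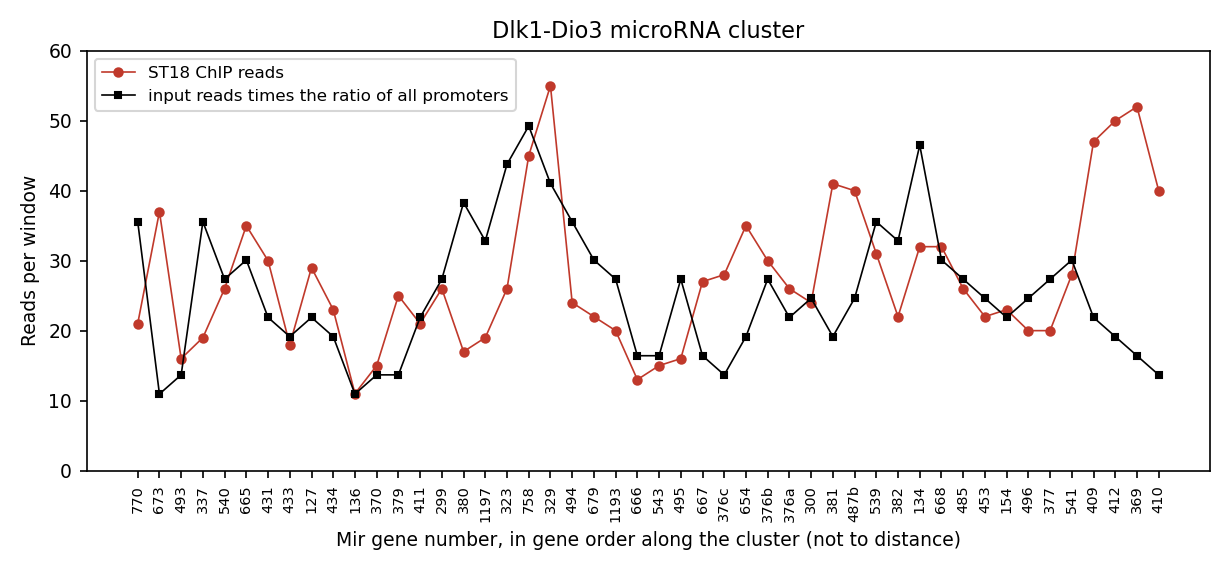
ST18 ChIP reads (red) and input reads multiplied by the ratio of all promoters (black) in the 48 listed microRNA windows of the Dlk1-Dio3 cluster, in gene order and not to distance. Some microRNA windows between them are not in the list. The red points stand clear above the black ones at Mir409, Mir412, Mir369 and Mir410 at the right end. They do so too at Mir673 near the left end and at Mir381. They lie below the black points at Mir380 and, among others, at Mir323, Mir337, Mir770 and Mir1197.

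The let-7 windows lay on the low side, with 1 locus setting the sum. The let-7 RNAs rise as cells differentiate and share the seed GAGGUAG printed above. Their 11 windows held 183 ST18 reads against 96 input reads, a fold of 0.697 (0.541 to 0.902), with a median log2 enrichment of -0.05 and 3 above the median of all windows. Mirlet7d had 14 ST18 reads against 17 input reads, the lowest log2 enrichment of any microRNA window at -0.61, and a fold of 0.301 (0.137 to 0.649), but an adjusted exact p of 0.425. Mirlet7a-1 and Mirlet7f-1, of the same cluster on chromosome 13, had 10 and 17 ST18 reads against 11 and 13 input reads. These 3 windows, set apart after their values were seen, summed to 41 ST18 reads against 41 input reads. The other 8 let-7 windows held 142 ST18 reads against 55 input reads, a fold of 0.944 (0.687 to 1.31), with an interval that covers 1. The highest, Mirlet7e, had 28 ST18 reads against 6 input reads (log2 0.31).

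The let-7 genes recur in 3 paralogous clusters that also hold a Mir99 or Mir100 gene and a Mir125 gene, whose values are given side by side. Mir125 RNAs share the seed CCCUGAG and, like let-7, target Lin28. The cluster of Mir99b, Mirlet7e and Mir125a, beside Ncrna00085, held 86 ST18 reads against 17 input reads, a fold of 1.85 (1.09 to 3.32). Its 3 windows lie in 1 region and can share reads, so this interval is too narrow. The cluster of Mir100, Mirlet7a-2 and Mir125b-1 held 42 ST18 reads against 28 input reads, a fold of 0.548 (0.332 to 0.918), to which Mir125b-1 gave 5 ST18 reads against 11 input reads (log2 -0.58, adjusted exact p 0.409). The cluster of Mir99a, Mirlet7c-1 and Mir125b-2 held 37 ST18 reads against 19 input reads, a fold of 0.712 (0.399 to 1.31). These clusters were set side by side after their values were seen, and no test was made between them. Mir125b-1 and Mir125b-2, which make the same miR-125b-5p, stood at log2 enrichments of -0.58 and 0.11, and the related Mir125a at 0.51.

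Windows whose products share a seed also differed in log2 enrichment in other families, picked with their values in view. Mir30a and Mir30c-2, whose products share the seed GUAAACA, had 19 and 23 ST18 reads against 0 and 14 input reads. The log2 enrichment was 0.57 for Mir30a and -0.24 for Mir30c-2. Mir7-2, Mir7-1 and Mir7b had 30, 18 and 21 ST18 reads against 3, 3 and 11 input reads. Mir135a-2 was low, with 10 ST18 reads against 12 input reads (log2 -0.48), while Mir135a-1 had 31 against 13 and Mir135b had 35 against 12. The fold intervals of Mir30a (from 1.71) and Mir30c-2 (0.296 to 1.26) do not overlap. Those of Mir7-2 (1.14 to 18.7) and Mir7b (0.322 to 1.60) do, as do those of Mir135a-2 (0.118 to 0.769) and Mir135b (0.540 to 2.26).

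The lowest windows included members of the Mir17-92 family, whose products act on cell cycle and apoptosis genes. Its 16 windows held 202 ST18 reads against 89 input reads, a fold of 0.830 (0.643 to 1.08). The X-linked Mir106a-363 cluster, with 6 windows in 1 region, held 43 ST18 reads against 41 input reads, a fold of 0.383 (0.244 to 0.603). It was set apart after its values were seen and its neighbouring windows overlap, so this fold is a description. Mir363 in it had 4 ST18 reads against 9 input reads (log2 -0.50, adjusted exact p 0.515). Without that cluster the other 10 windows gave 159 ST18 reads against 48 input reads, a fold of 1.21 (0.872 to 1.71). The Mir17-92 cluster itself had 69 ST18 reads against 28 input reads, a fold of 0.901 (0.573 to 1.45). The Mir106b-25 cluster had 60 against 13, a fold of 1.69 (0.916 to 3.35), led by Mir106b with 24 ST18 reads against 5 input reads. Mir199a-2 had 12 ST18 reads against 13 input reads (log2 -0.47).

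A pair of groups had windows with few reads. The Sfmbt2 cluster, a rodent array of near-identical microRNA copies in an intron of Sfmbt2, had 40 windows, 5 of them without reads, and a median of 8 reads. It held 253 ST18 reads against 140 input reads, a fold of 0.661 (0.535 to 0.818), with a median log2 enrichment of -0.09. Reads of near-identical copies may be split or lost by alignment, so these counts are uncertain. In it 7 Mir467a windows each had 7 ST18 reads against 5 input reads, and 11 Mir669a windows each had 0 against 1. With equal counts of 1 gene name counted once, a choice made with the values in view, the sum was 206 ST18 reads against 91 input reads, a fold of 0.827 (0.643 to 1.07), and the interval covers 1. Its ends were Mir669h with 20 ST18 reads against 2 input reads (log2 0.42) and Mir669m-1 and Mir669m-2, which lie in 1 region and had the same 5 against 9 (log2 -0.47). The X-linked testis clusters held 94 ST18 reads against 41 input reads over 21 windows, 4 of them without reads, a fold of 0.838 (0.575 to 1.24). Their highest window, Mir741, had 7 ST18 reads against 0 input reads and their lowest, Mir471, had 5 against 5. All 70 microRNA windows placed on X had a median of 9 reads, against 28 in the 496 on autosomes. Protein-coding windows on X had a median of 12 reads, against 28 on autosomes. The fold was 0.879 (0.746 to 1.04) for microRNA windows on X and 0.997 (0.960 to 1.04) for those on autosomes.

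The ratio was higher in windows with more reads, in microRNA and in protein-coding windows. In windows of 1 to 9 reads the fold was 0.708 over 56 microRNA windows and 0.757 over 907 protein-coding windows. In windows of 40 to 500 reads it was 1.20 over 79 microRNA windows and 1.17 over 2434 protein-coding windows. Past 0.58 in this class were 7 microRNA windows (8.86%) and 118 protein-coding windows (4.85%), of 8 and 231 in all. Mir412, Mir369 and Mir410 are among these 7 and lie in 1 region, so the microRNA share can count the same reads more than once. ST18 reads make up most of the total, so a window with more ST18 reads falls in a higher class by construction. The part of read number in the sum of the Sfmbt2 cluster was not tested.

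Among the groups of microRNAs known for other neuronal roles or other tissues, 0 of 83 windows were past 0.58, against 1.15% of all windows, a share near that background. The interval of each group's summed fold covers 1. The 26 other neuronal windows, among them Mir132, Mir134, Mir137 and Mir219, summed to 625 ST18 reads against 231 input reads, a fold of 0.989 (0.849 to 1.16), with a median of 0.09. Mir134 is counted here and in the Dlk1-Dio3 cluster, and Mir34a here and in the Mir34 family. The Mir34 family, made up of p53 targets and microRNAs of ciliated cells, had the highest median of these groups at 0.27. Its 6 windows held 135 ST18 reads against 37 input reads, a fold of 1.33 (0.921 to 1.97), from Mir34c with 21 against 3 to Mir449c with 19 against 12. Mir449a and Mir449b lie in 1 region, had the same 26 against 6, and can share reads counted more than once in this sum. Blood microRNAs held 131 ST18 reads against 37 input reads, a fold of 1.29 (0.892 to 1.92), with Mir155 highest at 26 against 5 and Mir223 lowest at 5 against 4.

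The Mir200 family, which holds cells in an epithelial state, summed to 133 ST18 reads against 45 input reads, a fold of 1.08 (0.765 to 1.55), with Mir200c highest at 19 against 3 and Mir200b lowest at 18 against 8. The Mir29 and Mir30 windows gave a fold of 1.04 (0.794 to 1.38). The pluripotency clusters of Mir290 and Mir302 gave 270 ST18 reads against 101 input reads, a fold of 0.977 (0.775 to 1.24), with log2 enrichments between -0.17 at Mir295 and 0.19 at Mir291b. Muscle microRNAs gave 153 ST18 reads against 60 input reads, a fold of 0.932 (0.687 to 1.28), from Mir499 with 26 against 6 to Mir133b with 3 against 5. Among the liver microRNAs, Mir122a had 17 ST18 reads against 4 input reads, Mir192 had 25 against 9, Mir194-1 had 20 against 7 and Mir194-2 had 31 against 9. The 6 windows inside Hox clusters gave a fold of 1.06 (0.756 to 1.52), from Mir196a-2 with 21 ST18 reads against 3 input reads to Mir10b with 15 against 13. Differences within these intervals were not detectable at this depth.

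**Figure D5:**
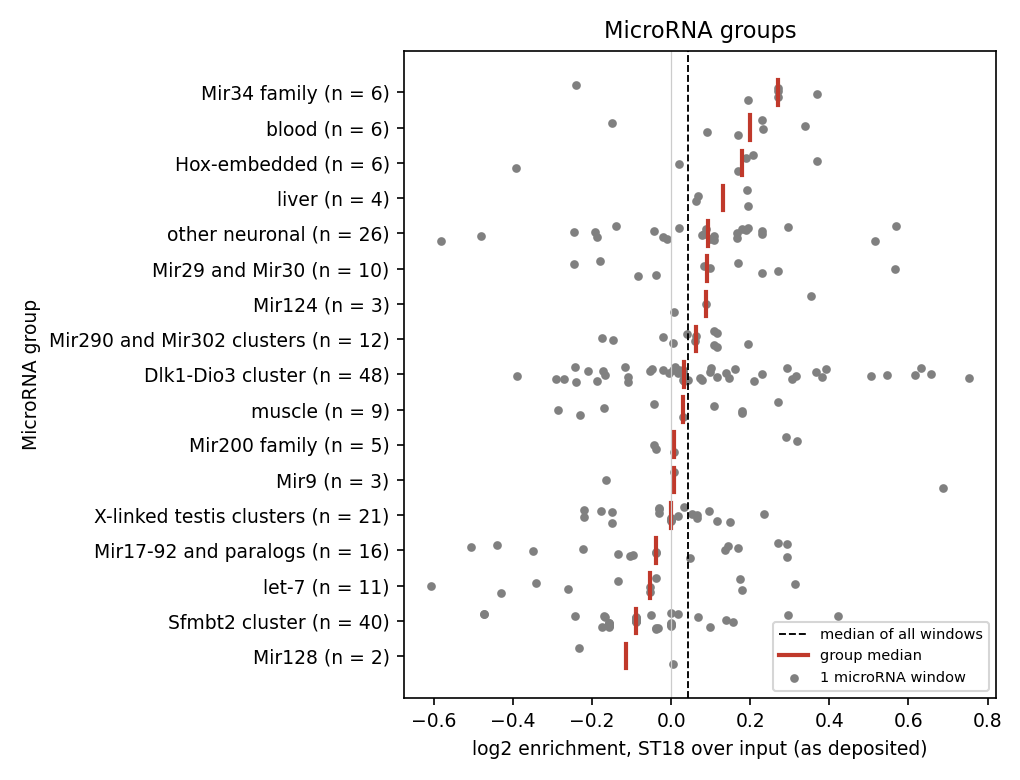
Deposited log2 enrichment of ST18 over input in each window of 17 microRNA groups, with group medians in red and the median of all windows, 0.04, as the dashed line. Most groups straddle the dashed line. The Mir34 family has the highest median, 0.27, and Mir128, with 2 windows, the lowest, -0.11. The let-7 and Sfmbt2 groups have medians of -0.05 and -0.09.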

How the data were processed

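Read counts per promoter window, as deposited by the authors, were used for the ST18 and input columns. The authors' deposited log2 enrichment was recomputed as the log2 of (0.4055 times ST18 plus 16) over (input plus 16), within 1e-06 in all 21881 windows. The build mm9 and the tools MACS2 2.0.10.20120913, Bowtie, edgeR, HTSeq 0.5.4p1 and TopHat2 2.0.8 are listed in the submitters' processing notes without roles. Whether duplicates were removed is not given in the sources used here. Neither the deposited peak list nor the RNA samples were used.

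Folds, exact intervals and exact binomial tests (doubling the smaller tail) used Python 3.11.15, numpy 2.4.6, pandas 2.3.3 and scipy 1.17.1, after a test on simulated data. Reads of 1 window were tested against the ratio of all promoters. Named windows were all Mir9, Mir124 and Mir128 windows, the 8 highest and 8 lowest, the 3 with most reads, called windows, the highest and lowest of each group and nearest coding windows. Others were named after their values were seen. Members and lists were chosen with earlier results of these data known. RefSeq symbols matched 21660 windows, and mature sequences were found for 485 microRNA windows. Alternatives covered scaling, pseudocount, thresholds, read filters and shared regions.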

Additional observations from a re-analysis of the deposited data

How the results depend on the processing

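The count of microRNA windows at a log2 enrichment of at least 0.58 was 8. It became 4 when ST18 was scaled to promoter totals, 30 with a pseudocount of 8 and 132 with a pseudocount of 1. It was 1 at a threshold of 0.8 and 1 at a threshold of 1. The share of all windows moved with it, at 0.608% for promoter totals, 6.98% for a pseudocount of 8 and 24.1% for a pseudocount of 1. The count at -0.58 or lower was 2, and became 15 and 91 with pseudocounts of 8 and 1, and 0 at thresholds of 0.8 and 1. The median log2 enrichment of microRNA windows, 0.03, became 0 with promoter totals and 0.10 with a pseudocount of 1, where the median of all windows was 0 and 0.12. Scaling by the deposited factor raised every fold by 0.15 on the log2 scale relative to the ratio of all promoters. The summed fold then became 1.12 and the exact test called 2 microRNA windows, Mir207 and Mir715, the latter without a RefSeq match. Leaving out windows near a protein-coding start, an alternative chosen after seeing the data, took away Mir207 and left 0 calls by the exact test. The other 41 recomputed values were classed as unchanged, by limits not stated here. Among them, the count at 0.58 or more was 6 with 1 window per region, an alternative chosen after seeing the data. The summed fold of the Mir9, Mir124 and Mir128 windows, 1.09, was 1.21 when scaled by the deposited factor. No paired analysis was possible because the promoter table has 1 ST18 column and 1 input column, and for the same reason no replicate could be left out. With a median of 26 reads per microRNA window, depth limits single windows to large differences.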
